A study of Mus musculus with 15 samples.

Results

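The nuclear genes for the subunits of the respiratory chain and the ATP synthase were followed in primary articular chondrocytes of ICR mice. Members were the protein-coding genes in both count tables whose symbols start with the usual subunit prefixes (Ndufa, Ndufb, Ndufc, Ndufs, Ndufv, Uqcr, Cox4 to Cox8 and Atp5), together with the 4 Sdh subunit genes and Cyc1. Names containing Ndufaf, which mark assembly factors, were left out. This gave 86 of 24134 gene IDs, of which 36 were assigned to complex I, 4 to complex II, 9 to complex III, 20 to complex IV and 17 to complex V. The genes were picked by name, with earlier results of these data known.

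The cells came from the femoral condyles and tibial plateaus of mice 4 to 5 days old and were used without passage. One set of 6 libraries compared control siRNA (siCtrl) with siRNAs against Tnks and Tnks2 (siTnks/2), which encode the tankyrases, enzymes that mark proteins with poly(ADP-ribose) and so prime them for degradation. The other set of 9 libraries compared the DMSO vehicle with the tankyrase inhibitors XAV939 and IWR-1, each at 10 µM for 108 h. Each group had 3 libraries, which the methods call biological replicates, and no further genotype or allele separated the groups. Whether animals were pooled in a culture is not given in the sources used here. The comparisons ask how loss or inhibition of tankyrase changes the chondrocyte transcriptome.

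Complexes I and II feed electrons from NADH and succinate into the chain, complex III passes them on to cytochrome c, and complex IV hands them to oxygen. Complexes I, III and IV pump protons, and complex V, the ATP synthase, uses the returning protons to make ATP. Subunits encoded in the mitochondrial genome were not analysed here. Articular cartilage has no blood vessels, and its chondrocytes are known to live at low oxygen tension and to rely largely on glycolysis. Several complex IV subunits exist in alternative versions made by separate genes. Cox4i2 and Ndufa4l2 are known as versions induced at low oxygen, Cox6a2 and Cox7a1 as heart and skeletal muscle versions, and Cox6b2, Cox7b2 and Cox8c as versions best known from testis.

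Libraries held 26857070 to 36615194 counts on genes. Levels are given as CPM, the counts scaled to library size by TMM, and changes as log2 fold changes with their standard error (SE). Adjusted p-values are from edgeR's quasi-likelihood test with Benjamini-Hochberg adjustment over all genes tested, and a gene was called at an adjusted p under 0.05. In siCtrl, Tnks stood at 69.0, 58.4 and 70.1 CPM and in siTnks/2 at 19.5, 12.7 and 24 CPM, 3.5-fold lower (adjusted p = 0.00569). Tnks2 was 2.15-fold lower (adjusted p = 0.00384). In the drug set, Tnks stood at 26.2, 20 and 64.1 CPM in DMSO replicates 1, 2 and 3 and was called with neither drug. Tnks2 was called lower with XAV939 (log2 fold change -0.41, adjusted p = 0.0394) and not called with IWR-1 (-0.27, adjusted p = 0.105). All 14 chondrocyte markers were at 1 CPM or more in every library. Their summed level was 27300 to 37400 CPM in DMSO, 38800 to 59000 CPM with XAV939 and 92100 to 118000 CPM with IWR-1, and it was 85900 to 117000 CPM in siCtrl against 127000 to 210000 CPM in siTnks/2. The summed level of 8 fibroblast markers was 12400 to 15900 CPM in DMSO. It was 6550 to 8550 CPM with XAV939 and 6080 to 9090 CPM with IWR-1. In siCtrl it was 5790 to 9530 CPM, against 2960 to 8210 CPM in siTnks/2. These 8 markers did not all move alike. XAV939 had 1 called higher (log2 fold change 1.21) and 3 called lower. For IWR-1, 1 was called higher (1.32) and 4 lower. In the siRNA set 2 were above 0, the larger at 2.05, and 1 was called in each direction. Leukocyte markers, 5 or 6 of 9 of which were under 1 CPM, summed to 35.2 to 44.6 CPM in DMSO, 31.8 to 38.8 CPM with XAV939 and 14.4 to 20.3 CPM with IWR-1, where 5 of 5 tested were below 0 and 3 called, and to 8.43 to 12.1 CPM in the siRNA set. The part of these shifts in the results on the respiratory genes was not tested, and in such bulk samples fewer cells of a type and less RNA per cell cannot be told apart.

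DMSO replicate 3 stood apart in these genes, and not in these alone. It was the lowest of the 3 DMSO libraries for 82 of 83 members tested, and its mean log2 CPM over them was 5.56, against 6.02 and 6.16 in DMSO replicates 1 and 2. IWR-1 replicate 3 was likewise the lowest of its group for 78 members, and XAV939 replicate 3 for 58. The shares over all genes were not counted. Genes of the cytosolic ribosome averaged 8.29 in DMSO replicate 3, against 8.74 and 8.98 in replicates 1 and 2. Those of the mitochondrial ribosome averaged 4.32, against 4.67 and 4.82. In both lists replicate 3 was also the lowest library with XAV939 and with IWR-1. Libraries with the same replicate number deviated together in the siRNA set and, less evenly, in the drug set. After removal of group means, DMSO replicate 2 correlated 0.143 and 0.244 with replicate 2 of XAV939 and IWR-1. With replicate 1 of XAV939 and IWR-1 the values were 0.318 and 0.316, so the pairing of DMSO replicate 2 is less certain. Values from a second model that blocks on the replicate number stand beside the results it changes.

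Most members were abundant. In siCtrl, the 76 members whose transcripts share nearly 1 length had a median of 84.8 RPKM (TMM-scaled CPM per kilobase of transcript). The levels per length were led by Atp5b at 428 RPKM, which encodes the catalytic beta subunit of the ATP synthase, Cox4i1 at 299 RPKM, Cox6a1 at 296 RPKM and Cox8a at 277 RPKM. In DMSO, Ndufa4l2 led with 692 RPKM, ahead of Atp5b at 295 RPKM, against a median of 80.4 RPKM. Cox7a1 and Cox6a2 were near the bottom in both sets, with 0.916 and 2.61 RPKM in siCtrl and 2.07 and 2.70 RPKM in DMSO. Cox7b2, Cox8b and Cox8c did not pass the filter on low counts, with at most 3, 6 and 2 counts in any library, so 83 members were tested. For these genes a difference was not detectable at this depth. The siRNA and drug sets are separate cultures and tables, so set and culture cannot be told apart in these levels.

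With knockdown, the chain as a whole lay slightly lower. Of 83 members, 65 had a log2 fold change below 0 and 18 above 0, with a median of -0.14 against 0 over all 13672 genes tested. Calls were 15 lower and 0 higher, 18.1% of the members in the lower direction, against 7.61% of all genes called lower and 10.4% called higher. DESeq2 called 18 lower and 0 higher, where 22.4% of all genes were called in either direction. With edgeR, Cox6a2 was the 1 member higher at an unadjusted p under 0.05. With a trend in transcript length and GC content removed, 6 were called lower and 0 higher, where 20% of all genes were called. The median was then -0.07. By complex, the lower calls were 5 of 36 in complex I, 1 of 4 in complex II, 3 of 9 in complex III, 2 of 17 in complex IV and 4 of 17 in complex V. Within pairs of the same replicate number, 46 members (55.4%) were lower in all 3 pairs and 5 (6.02%) higher, where the shares over all genes were 34.9% and 34%. The complex V genes were the most uniform, with 14 of 17 lower in all 3 pairs. With the replicate block, 36 members were called lower and 1 higher, against 16.5% and 18.1% of all genes. With trend removal and block together, 18 were called lower and 3 higher, where 35.1% of all genes were called in either direction. In that fit 30 of 83 members were above 0. The count of 15, where 18% of all genes were called, moved with single libraries, and so did the share of all genes. It was 1 without siCtrl replicate 1 (4.4% of all genes) and 3 without siCtrl replicate 3 (4.91%). Without siCtrl replicate 2 (6.72%) or siTnks/2 replicate 1 (5.78%) it was 4. It was 5 without siTnks/2 replicate 3 (16.1%) and 15 without siTnks/2 replicate 2 (20.8%). The member median lay between -0.154 and -0.095 in these 6 fits.

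**Figure D1:**
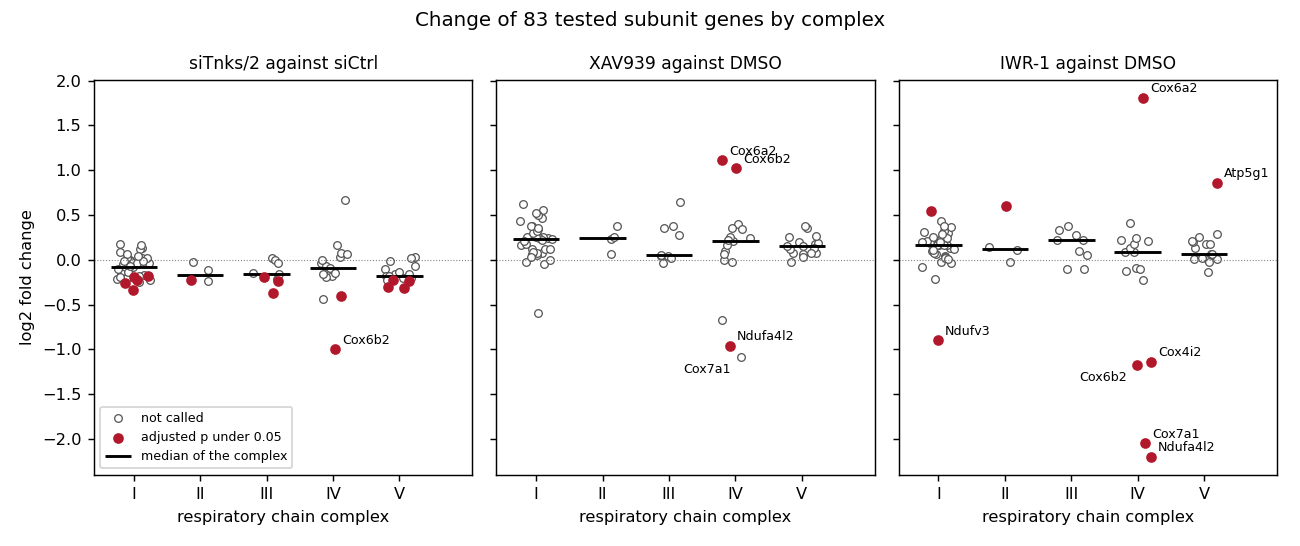
Log2 fold change (vertical axis) of each of the 83 tested members, grouped by complex I to V, with knockdown, XAV939 and IWR-1. Each point is a gene, red where its adjusted p was under 0.05, and the bar is the median of the complex, so the medians lie below 0 with knockdown and above 0 with both drugs, while the widest spread is in complex IV.

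Cox6b2 had the strongest call with knockdown. It encodes a version of the complex IV subunit that bridges the monomers of the dimer. It stood at 6.66, 7.47 and 6.09 CPM in siCtrl and at 3.19, 3.53 and 3.30 CPM in siTnks/2, a change of -1 on the log2 scale, or 2-fold (SE 0.129, adjusted p = 0.00662). The lowest siCtrl library was well above the highest siTnks/2 library. The usual version, Cox6b1, had a log2 fold change of -0.19 (adjusted p = 0.0675).

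The other members called lower changed by far less. Uqcr11, the smallest subunit of complex III, stood at 68.6, 66.1 and 63.6 CPM in siCtrl and 53.0, 51.5 and 49.2 CPM in siTnks/2 (log2 fold change -0.37, SE 0.0589, adjusted p = 0.0111, or 0.0600 without siCtrl replicate 1). The groups did not overlap.

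Cox7b, an accessory subunit of complex IV, stood at 96.3, 108 and 93.4 CPM in siCtrl and 72.0, 81.1 and 72.3 CPM in siTnks/2 (log2 fold change -0.40, SE 0.0795, adjusted p = 0.0192). Cyc1, the heme subunit that passes electrons to cytochrome c, stood at 86.7, 86.4 and 82.7 CPM in siCtrl and 72.7, 71.4 and 72.1 CPM in siTnks/2 (log2 fold change -0.24, SE 0.0497, adjusted p = 0.0208). For both, no siTnks/2 library reached the level of a siCtrl library, although either call was lost when siCtrl replicate 1, 2 or 3 or siTnks/2 replicate 1 was left out. For Cyc1 those adjusted p-values were 0.1034, 0.06772, 0.06581 and 0.07265.

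In complex V, the F1 head carried 2 of the 4 calls, Atp5b and Atp5d. Atp5b stood at 839, 772 and 848 CPM in siCtrl and 691, 627 and 684 CPM in siTnks/2 (log2 fold change -0.30, SE 0.076, adjusted p = 0.0393). All 5 F1 genes had log2 fold changes below 0, from -0.32 to -0.07, and Atp5a1, which encodes the alpha subunit, was at -0.20 (adjusted p = 0.0708, and 0.0294 with the block). The subunit c ring, which turns as protons pass, is encoded by 3 genes that make the same mature peptide. Atp5g2 was called lower (log2 fold change -0.24, adjusted p = 0.0297), Atp5g3 was at -0.16 (adjusted p = 0.0782) and Atp5g1 at 0.03 (adjusted p = 0.777). Atp5g2 shares 87.4% of its 50-base windows with other transcripts, so its counts are uncertain.

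In complex II, which is also the succinate dehydrogenase of the citric acid cycle, the membrane anchor Sdhd fell from 103, 100 and 99.1 CPM to 90.8, 83.5 and 84.4 CPM (log2 fold change -0.23, adjusted p = 0.0361). The other anchor, Sdhc, was at -0.24 (adjusted p = 0.0740, and 0.0112 with the block). The catalytic subunits Sdha, at -0.03, and Sdhb, at -0.11, were not called. In the NADH-oxidising arm of complex I, Ndufv1 was called lower (-0.18, adjusted p = 0.0488), and all 7 core genes of the complex had log2 fold changes below 0. Uqcrc1 of complex III was called lower as well (-0.19, adjusted p = 0.0497). When each library was left out in turn, the call of Uqcrc1 held in 0 of 6 fits, those of Ndufv1, Atp5b, Atp5g2 and Sdhd in 1 of 6 each, without siTnks/2 replicate 2, and that of Atp5d in 2 of 6, and all 6 calls were lost with the length and GC trend removed.

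With XAV939 the balance lay the other way, and few genes passed the test. Of 83 members, 73 had a log2 fold change above 0, with a median of 0.20 against 0.02 over all genes. Calls were 2 higher and 1 lower, against 7.57% of all genes called higher and 9.85% called lower. The median was 0.04, with 49 of 83 members above 0, when DMSO replicate 3 was left out, and 0.03 with 44 above 0 when the length and GC trend was removed. With the replicate block, 26 members were called higher and 4 lower, against 16% and 17.4% of all genes. That split was 4 higher and 8 lower with the trend removed, where 27% of all genes were called in either direction. With trend removal and block together it was 12 higher and 10 lower, where 39.1% of all genes were called. Members higher in all 3 pairs numbered 40 (48.2%, against 29.3% of all genes) and those lower in all 3 pairs 4 (4.82%, against 27.7%). The median within pairs was 0.22, 0 and 0.38, so the second pair did not show the shift. The count of 3 calls, where 17.4% of all genes were called, was 1 without XAV939 replicate 1 (11.7% of all genes). Without DMSO replicate 1 (9.45%) or XAV939 replicate 2 (13.3%) it was 2. It was 5 without DMSO replicate 2 (16.2%) or 3 (15.3%) and 7 without XAV939 replicate 3 (17.7%).

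Among the genes called higher with XAV939 under the block were Ndufs8 of complex I (0.60, adjusted p = 0.00532), Ndufa2 (0.54, adjusted p = 0.00566), Uqcr10 of complex III (0.61, adjusted p = 0.00947) and Sdhb (0.38, adjusted p = 0.00939). By complex, these calls were 13 of 36 in complex I, 2 of 4 in complex II, 3 of 9 in complex III, 5 of 17 in complex IV and 3 of 17 in complex V. None of these 4 genes was called without the block. The 2 genes called higher in both fits were Cox6a2 and Cox6b2, and the 1 called lower in both was Ndufa4l2.

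With IWR-1, 9 members were called, 4 higher and 5 lower, against 16.2% and 20.2% of all genes. The median over the members was 0.13 against 0.01 over all genes, with 65 of 83 above 0, and it was -0.01 with 39 above 0 when DMSO replicate 3 was left out. Higher in all 3 pairs were 32 members (38.6%, against 35.2% of all genes), and lower in all 3 were 6 (7.23%, against 34.6%). The median within pairs was 0.16, -0.08 and 0.34. With the block, 17 were called higher and 5 lower, against 22.2% and 25.3% of all genes. With the length and GC trend removed, 16 were called higher and 8 lower, where 47.6% of all genes were called in either direction. The median was then 0.08, with 49 members above 0. With trend removal and block together, 22 were called higher and 9 lower, where 55.8% of all genes were called. The 5 tested isoform genes of complex IV were all among the 9 calls, and complex III had none.

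**Figure D2:**
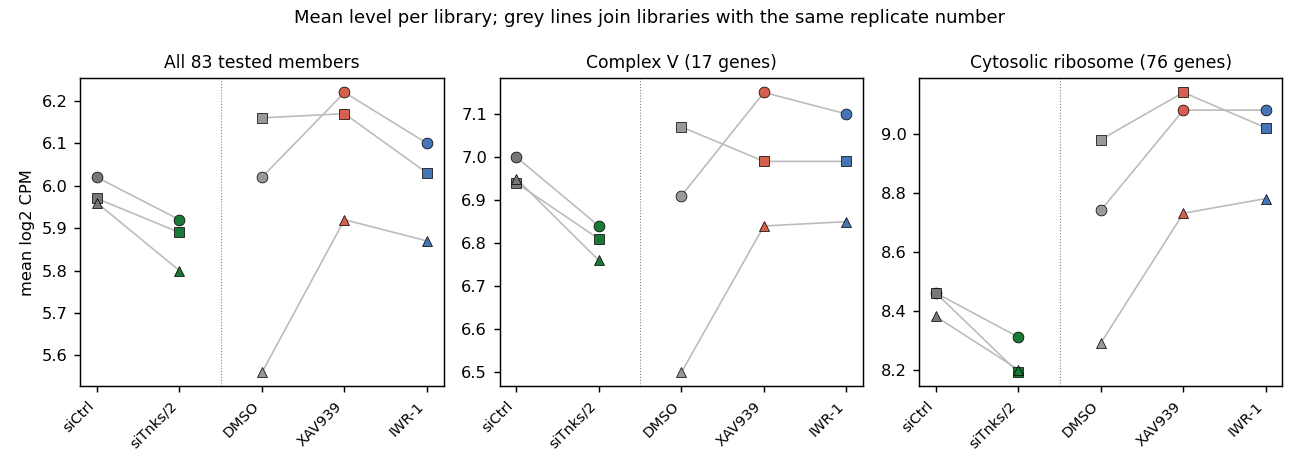
Mean log2 CPM per library (vertical axis) over the 83 tested members, the 17 complex V genes and 76 genes of the cytosolic ribosome, by group. Grey lines join libraries of the same replicate number, and DMSO replicate 3 is the lowest point of the members at 5.56, below 5.87 to 6.10 with IWR-1 and 5.92 to 6.22 with XAV939.

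Ndufa4l2 had the largest change of any member with IWR-1. It is a paralog of Ndufa4, a complex IV subunit first assigned to complex I. It lies at chr10:127509274-127517154 (GRCm38), where its span overlaps the coding gene Shmt2. It stood at 758, 726 and 455 CPM in DMSO, at 410, 274 and 316 CPM with XAV939 and at 132, 142 and 146 CPM with IWR-1. Every XAV939 library lay below every DMSO library, and every IWR-1 library below every XAV939 library. XAV939 changed it by -0.96 (SE 0.198, adjusted p = 0.00801, 1.94-fold lower) on the log2 scale and IWR-1 by -2.20 (SE 0.205, adjusted p = 2.113e-05, 4.61-fold lower). In siCtrl it stood at 99.2, 118 and 76.5 CPM and in siTnks/2 at 84.2, 78.5 and 54.6 CPM, where the groups overlapped. Within the pairs siTnks/2 was lower each time, and the knockdown log2 fold change of -0.44 had an adjusted p of 0.0110 with the block and 0.174 without it. In the DMSO libraries this gene alone took 7.67% to 9.52% of all member reads, against 3.18% to 4.78% with XAV939 and 1.63% to 2.09% with IWR-1.

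Ndufa4, its partner, stood at 80.1, 93.2 and 63.3 CPM in DMSO and 115, 105 and 93.7 CPM with IWR-1 (log2 fold change 0.41, adjusted p = 0.0563, and 0.00616 with the block). Per length, Ndufa4l2 made up 84.0% ± 1.86 (SD, n = 3) of the pair in DMSO, 70.1% ± 2.68 with XAV939 and 46.8% ± 3.8 with IWR-1. No library of 1 group reached the range of the next. Each of the 3 comparisons gave p = 0.1 in an exact two-sided permutation test, the smallest value that 3 libraries against 3 can give, so this design cannot reach 0.05. The share was 42.1% ± 5.17 in siCtrl and 34.0% ± 4.38 in siTnks/2 (exact p = 0.2).

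Cox4i2, a version of the subunit that takes part in regulating complex IV by ATP, lies at chr2:152753916-152765039 and overlaps Bcl2l1. It stood at 53.0, 51.0 and 27.3 CPM in DMSO, at 30.6, 29.6 and 22.3 CPM with XAV939 and at 20.1, 22.2 and 17.1 CPM with IWR-1. The IWR-1 libraries lay below all DMSO libraries, whereas the XAV939 libraries overlapped with DMSO replicate 3. The log2 fold change was -1.14 with IWR-1 (SE 0.231, adjusted p = 0.00275, 2.21-fold lower). With XAV939 the change of -0.67 was not called (adjusted p = 0.0675), whereas it was called with the block (-0.64, adjusted p = 0.00268), with DESeq2, without a filter on low counts, with the length and GC trend removed and without DMSO replicate 3. Its share of the pair with Cox4i1 was 17.5% ± 2.97 in DMSO, 9.53% ± 1.62 with XAV939 and 8.44% ± 0.723 with IWR-1 (exact p = 0.1 for each drug). In the siRNA set the share was 11.6% ± 1.04 and 11.5% ± 1.58.

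Cox7a1, at chr7:30184171-30186030, was rare, with 34, 34 and 13 counts in DMSO and 2, 8 and 5 counts with IWR-1. These are 1.04, 0.990 and 0.409 CPM against 0.0581, 0.257 and 0.145 CPM, and the groups did not overlap. On the log2 scale the change was -2.05 (SE 0.41, adjusted p = 0.00260, 4.13-fold lower). With XAV939 the libraries stood at 0.377, 0.338 and 0.339 CPM, and the gene was called lower with the block (-1.04, adjusted p = 0.0312).

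Ndufv3, at chr17:31520115-31531326, encodes an accessory subunit near the NADH-binding flavoprotein of complex I. It stood at 173, 181 and 104 CPM in DMSO, at 113, 105 and 85.7 CPM with XAV939 and at 83.2, 86.9 and 74.9 CPM with IWR-1. All IWR-1 libraries were below all DMSO libraries, with a change of -0.90 on the log2 scale (SE 0.19, adjusted p = 0.00353, 1.87-fold lower). With XAV939 it was called with the block (-0.57, adjusted p = 0.00334). It was the only member outside complex IV called lower with IWR-1. In the siRNA set its libraries lay between 55.2 and 73.7 CPM and the groups overlapped.

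**Figure D3:**
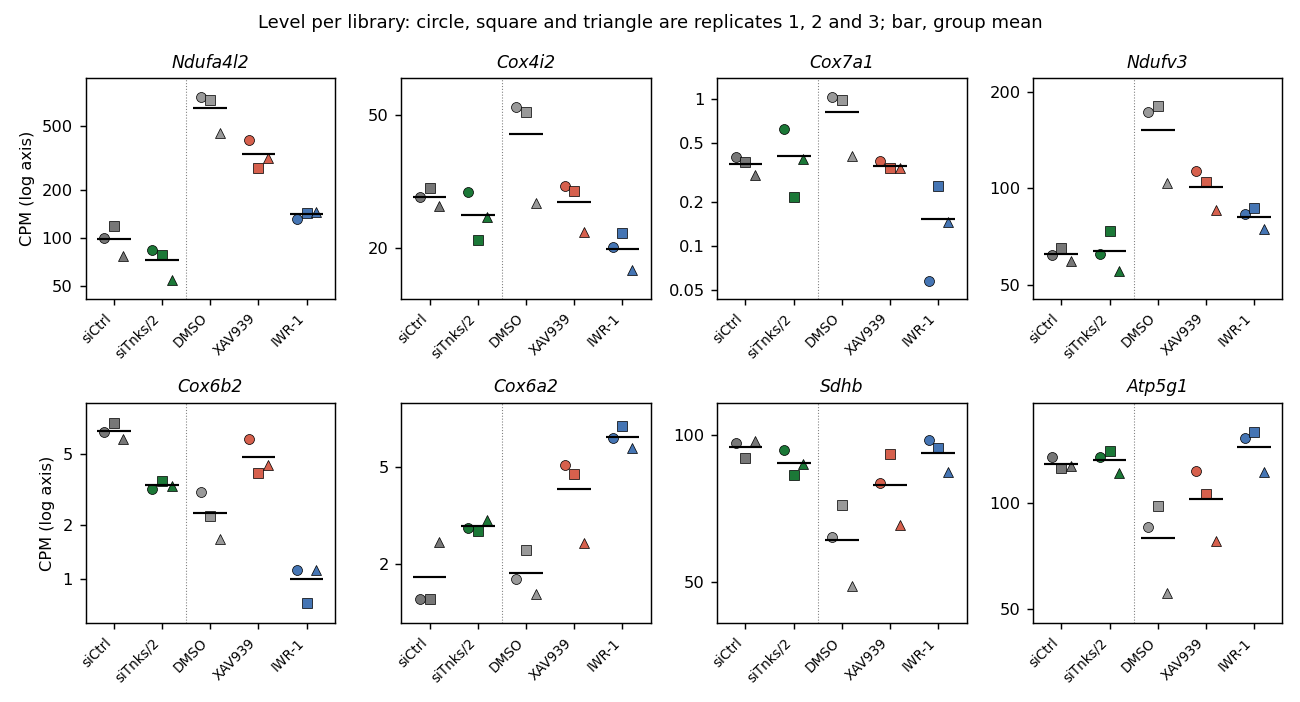
CPM per library on a log axis (vertical) for Ndufa4l2, Cox4i2, Cox7a1, Ndufv3, Cox6b2, Cox6a2, Sdhb and Atp5g1 in the 5 groups. Circles, squares and triangles are replicates 1, 2 and 3 and bars are group means, and Ndufa4l2 steps down from a mean of 646 CPM in DMSO to 333 CPM with XAV939 and 140 CPM with IWR-1.

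Cox6b2, at chr7:4751792-4753094, differed in direction between the inhibitors. It stood at 3.05, 2.27 and 1.67 CPM in DMSO, at 6.09, 3.94 and 4.32 CPM with XAV939 and at 1.13, 0.738 and 1.13 CPM with IWR-1, so that the 3 groups were fully separated. The log2 fold change was 1.02 with XAV939 (SE 0.254, adjusted p = 0.0193, 2.03-fold higher) and -1.17 with IWR-1 (SE 0.275, adjusted p = 0.00693, 2.24-fold lower). The call with XAV939 was lost without XAV939 replicate 1 (adjusted p = 0.0763) or DMSO replicate 3 (adjusted p = 0.0516).

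Cox6a2, at chr7:128205435-128206366 and overlapping Itgad, was the member that rose most. It stood at 1.74, 2.27 and 1.51 CPM in DMSO, at 5.07, 4.65 and 2.44 CPM with XAV939 and at 6.54, 7.32 and 5.97 CPM with IWR-1. All treated libraries were above all DMSO libraries. The log2 fold change was 1.11 with XAV939 (SE 0.265, adjusted p = 0.0159, 2.16-fold higher) and 1.81 with IWR-1 (SE 0.263, adjusted p = 0.000347, 3.5-fold higher). The call with XAV939 was lost without DMSO replicate 1 (adjusted p = 0.0635), XAV939 replicate 1 (adjusted p = 0.0626) or XAV939 replicate 2 (adjusted p = 0.0560). In siCtrl it stood at 1.43, 1.44 and 2.45 CPM and in siTnks/2 at 2.81, 2.74 and 3.03 CPM, without overlap, and it was the 1 member called higher with knockdown under the block (0.69, adjusted p = 0.0353). It remained a minor version throughout, at 3.35% ± 0.181 of the pair with Cox6a1 with IWR-1 against 1.11% ± 0.165 in DMSO (exact p = 0.1). The summed level of 9 skeletal muscle markers was 1.98 to 2.55 CPM in DMSO, 2.59 to 3.15 CPM with XAV939 and 2.66 to 3.39 CPM with IWR-1, so that every treated library lay above every DMSO library. It was 4.7 to 9.16 CPM in siCtrl and 5.93 to 7.02 CPM in siTnks/2, and 6 to 9 of the markers were under 1 CPM in each library. All 4 muscle markers tested had log2 fold changes above 0 with each drug, and 1 was called, with IWR-1. Adipocyte markers, 4 or 5 of 6 of which were under 1 CPM, summed to 37.1 to 50.7 CPM in DMSO, 26.9 to 31.5 CPM with XAV939 and 13 to 17.6 CPM with IWR-1. Of the 2 adipocyte markers tested, 1 was called lower with each drug and the other was above 0, and both were called higher with knockdown, where the sum went from 5.62 to 7.47 CPM in siCtrl to 11.2 to 16.6 CPM in siTnks/2. The part of either list in the isoform levels was not tested.

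**Figure D4:**
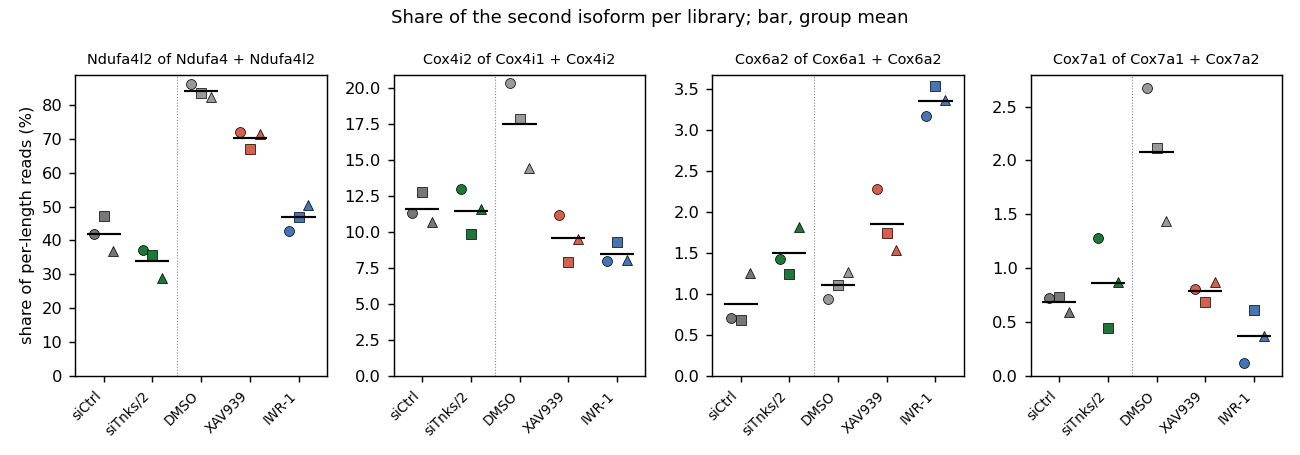
Share in percent (vertical axis) of per-length reads taken by Ndufa4l2, Cox4i2, Cox6a2 and Cox7a1 out of the sum with Ndufa4, Cox4i1, Cox6a1 and Cox7a2, in each library of the 5 groups. Points are libraries and bars are means, and the Ndufa4l2 share falls from 84.0% in DMSO to 46.8% with IWR-1 while the Cox6a2 share goes from 1.11% to 3.35%.

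The 3 usual subunits called higher with IWR-1 belong to complexes V, II and I. Atp5g1 stood at 85.4, 97.7 and 55.5 CPM in DMSO and at 152, 158 and 122 CPM with IWR-1 (log2 fold change 0.86, SE 0.216, adjusted p = 0.00985, 1.81-fold higher), without overlap. It was the only one of the 3 subunit c genes called, since Atp5g2 was at 0.21 (adjusted p = 0.337) and Atp5g3 at 0 (adjusted p = 0.993). Its share of subunit c reads per length was 4.07% in DMSO and 6.68% with IWR-1 (exact p = 0.1), a share whose size depends on the transcript length used. Sdhb, the iron-sulfur subunit of succinate dehydrogenase, stood at 61.7, 71.8 and 49.0 CPM in DMSO and 97.9, 94.2 and 84.0 CPM with IWR-1 (log2 fold change 0.60, SE 0.157, adjusted p = 0.0121, 1.51-fold higher). The IWR-1 libraries again lay above all DMSO libraries, while Sdha, Sdhc and Sdhd were at 0.14, 0.11 and -0.03 and were not called. Ndufa5, an accessory subunit of complex I, stood at 23.1, 26.9 and 17.2 CPM in DMSO and 35.7, 34.2 and 27.9 CPM with IWR-1 (log2 fold change 0.54, SE 0.167, adjusted p = 0.0269). Its call was lost without DMSO replicate 1, DMSO replicate 3, IWR-1 replicate 1 or IWR-1 replicate 2, with an adjusted p of 0.0611 without DMSO replicate 3.

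RefSeq promoters on GRCm38.p6 were available for 69 members. The 300-base windows around the start of 5 of the 9 genes called with IWR-1 are shown for their sequence context, with matches to ACGTG, the core of the hypoxia response element, and to CCGGAAG, an ETS family motif read by Gabpa, in capitals. Both strands were searched. ACGTG occurs in 19.6% of 32817 promoters and in 18 of 74 member promoters (24.3%), and CCGGAAG in 8.86% of all and in 17 of 74 member promoters (23%). Of the genes that fell with IWR-1, Cox7a1 (chr7:30183921-30184220, plus strand) and Ndufv3 (chr17:31519865-31520164, plus strand) each hold 1 ACGTG, while Cox6b2 (chr7:4753045-4753344, minus strand) holds neither motif. Of the genes that rose, Atp5g1 (chr11:96075582-96075881, minus strand) holds 3 ACGTG matches, counting the palindrome CACGTG on both strands, and Sdhb (chr4:140961021-140961320, plus strand) holds 1 CCGGAAG. The 2 listed promoters of Ndufa5 hold neither motif. Those of Cox6a2, Ndufa4l2 and Cox4i2 were not analysed here.
Cox7a1: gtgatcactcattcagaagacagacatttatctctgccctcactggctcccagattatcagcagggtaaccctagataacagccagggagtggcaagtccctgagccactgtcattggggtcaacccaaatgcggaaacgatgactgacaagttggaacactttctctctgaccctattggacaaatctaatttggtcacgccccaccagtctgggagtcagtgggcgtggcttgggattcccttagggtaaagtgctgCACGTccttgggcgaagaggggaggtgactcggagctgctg
Ndufv3: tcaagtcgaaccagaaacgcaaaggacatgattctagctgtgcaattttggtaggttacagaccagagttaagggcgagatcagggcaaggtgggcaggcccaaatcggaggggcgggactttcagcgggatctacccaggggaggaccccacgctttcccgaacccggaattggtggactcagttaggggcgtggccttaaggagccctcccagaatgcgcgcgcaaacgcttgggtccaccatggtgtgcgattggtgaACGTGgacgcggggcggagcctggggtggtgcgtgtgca
Cox6b2: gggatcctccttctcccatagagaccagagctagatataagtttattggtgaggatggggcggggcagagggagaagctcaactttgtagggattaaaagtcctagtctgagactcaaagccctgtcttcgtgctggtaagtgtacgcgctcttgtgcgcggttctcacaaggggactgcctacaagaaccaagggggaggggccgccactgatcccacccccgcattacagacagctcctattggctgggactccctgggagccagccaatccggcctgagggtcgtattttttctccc
Atp5g1: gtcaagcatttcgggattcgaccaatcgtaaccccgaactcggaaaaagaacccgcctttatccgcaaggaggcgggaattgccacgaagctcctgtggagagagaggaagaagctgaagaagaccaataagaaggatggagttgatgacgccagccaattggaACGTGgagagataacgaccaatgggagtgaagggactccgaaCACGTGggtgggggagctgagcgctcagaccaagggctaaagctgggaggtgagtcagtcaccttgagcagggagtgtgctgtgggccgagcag
Sdhb: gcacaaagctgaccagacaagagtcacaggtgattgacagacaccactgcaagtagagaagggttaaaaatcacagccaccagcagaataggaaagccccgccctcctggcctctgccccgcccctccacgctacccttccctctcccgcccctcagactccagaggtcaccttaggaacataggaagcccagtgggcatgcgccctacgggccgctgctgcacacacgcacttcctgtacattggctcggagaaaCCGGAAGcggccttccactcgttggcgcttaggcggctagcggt

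The inhibitors were given at the same dose for the same time, so they were also set against each other. Over the 83 pairs of gene levels, adjusted with all genes tested, 2 members differed between IWR-1 and XAV939, against 17.6% of all genes. Cox6b2 was lower with IWR-1 by -2.19 on the log2 scale (95% interval -2.79 to -1.59, adjusted p = 0.000551) and Ndufa4l2 by -1.25 (95% interval -1.69 to -0.81, adjusted p = 0.00198). With the replicate block there were 8 calls, 2 higher and 6 lower with IWR-1, against 30.7% of all genes. Higher were Atp5g1 (0.51, adjusted p = 0.00356) and Cox6a2 (0.73, adjusted p = 0.00781), and lower were Cox6b2, Ndufa4l2, Cox4i2 (-0.46, adjusted p = 0.0168), Cox7b (-0.32, adjusted p = 0.0354), Ndufa3 (-0.34, adjusted p = 0.0367) and Ndufa6 (-0.32, adjusted p = 0.0171). For 79 of 83 members the 95% interval of the difference lay within 1 log2 unit of 0. Without the block, Cox7a1 differed by -0.97 (95% interval -1.92 to -0.01), Cox6a2 by 0.70 (95% interval 0.15 to 1.25), Atp5g1 by 0.50 (0.02 to 0.97), Cox4i2 by -0.47 (-0.98 to 0.03), Ndufv3 by -0.31 (-0.73 to 0.11) and Sdhb by 0.22 (-0.12 to 0.57), none of which was called.

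The knockdown and the inhibitors have separate controls, so their effects could be compared by an interaction term over the 15 libraries. For XAV939, 74 of 83 members had a lower log2 fold change with knockdown than with the drug, where 6897 of all 14271 genes did. All 76 genes of the cytosolic ribosome did so too, with a median difference of -0.50 against -0.31 for the members. Without DMSO replicate 3, 22 members had the higher value with knockdown, against 9 with all libraries. The length and GC trend was not removed in this comparison. Calls numbered 3 members, against 13.5% of all genes. These were Cox6b2 (knockdown minus XAV939 -2.01, adjusted p = 0.000933), Ndufv1 (-0.53, adjusted p = 0.0186) and Sdhc (-0.49, adjusted p = 0.0404). With the block, 32 were called, 31 of them lower, against 28.2% of all genes. For IWR-1, 13 members were called, 4 higher and 9 lower, against 13.9% and 10.5% of all genes. The 4 higher were Ndufa4l2 (knockdown minus IWR-1 1.78, adjusted p = 0.000724), Ndufv3 (0.95, adjusted p = 0.0105), Cox7a1 (2.20, adjusted p = 0.0113) and Cox4i2 (0.97, adjusted p = 0.0256), all of which fell with IWR-1. The 9 lower were led by Sdhb (-0.70, adjusted p = 0.0142), Atp5b (-0.47, adjusted p = 0.0195) and Ndufv1 (-0.46, adjusted p = 0.0202). With the block, 29 were called, 4 higher and 25 lower, against 19.3% and 17% of all genes.

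Single libraries moved these counts. With XAV939 the count of 3 ranged from 2 to 15 when 1 library was left out, against 8.6% to 15% of all genes. It was 13 without DMSO replicate 2 (13.8% of all genes) and 15 without XAV939 replicate 3 (15%), and Sdhc lost its call in 10 of these fits. With IWR-1 the count of 13 ranged from 5 to 15, against 18.9% to 27.3% of all genes. It was 5 without siCtrl replicate 3 (20%) or IWR-1 replicate 1 (18.9%) and 6 without siTnks/2 replicate 1 (20.6%). Without siCtrl replicate 1 (19.1%), DMSO replicate 1 (19.1%) or IWR-1 replicate 2 (19.3%) it was 7.

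Other mitochondrial lists were counted in the same way, against the shares of all genes called that are given above. Of 52 assembly factor genes tested, 4 (7.69%) were called lower with knockdown and 0 higher, where 7.61% of all genes were called lower. With XAV939, 2 (3.85%) were called higher and 1 lower, and with IWR-1, 12 (23.1%, against 16.2% of all genes) higher and 3 lower. Among them, Coa3, needed for early complex IV assembly, fell with knockdown (-0.36, adjusted p = 0.00962). Lyrm7, a chaperone for the Rieske protein of complex III, rose with IWR-1 (1.01, adjusted p = 0.00124). Higd1a, a complex IV-associated protein known to be induced at low oxygen, fell with XAV939 (-0.71, adjusted p = 0.00484) and with IWR-1 (-0.85, adjusted p = 0.000560).

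Of 16 genes for mitochondrial DNA expression, edgeR called 0 with knockdown (2 at an unadjusted p under 0.05), 2 (12.5%) rose with XAV939 and 5 (31.2%) rose with IWR-1. Among the 5 were Lrpprc, which stabilises mitochondrial mRNA (0.55, adjusted p = 0.00104), and Tfam, which packages mitochondrial DNA (0.36, adjusted p = 0.0149). Of 14 regulators of mitochondrial biogenesis, 2 rose and 2 fell with IWR-1 (14.3% each way, against 16.2% and 20.2% of all genes). The coactivator Ppargc1b rose (1.26, adjusted p = 0.0239) while the nuclear receptors Ppard (-0.95, adjusted p = 0.000129) and Esrra (-0.48, adjusted p = 0.0137) fell. Ppargc1a had log2 fold changes of -0.48, -0.92 and -0.41 with knockdown, XAV939 and IWR-1, and neither it nor Nrf1 nor Gabpa was called.

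Of 78 genes of the mitochondrial ribosome, 11 (14.1%, against 7.61% of all genes) were called lower with knockdown, 2 (2.56%, against 7.57%) higher with XAV939 and 17 (21.8%, against 16.2%) higher with IWR-1, with medians of -0.12, 0.19 and 0.27. Of 14 citric acid cycle genes, 3 (21.4%) were called lower with knockdown, including Cs, the citrate synthase (-0.30, adjusted p = 0.0193), and 2 (14.3%) higher with IWR-1, including Suclg2 (0.73, adjusted p = 0.000133). Among 22 genes for inner membrane carriers and mobile electron carriers, 7 (31.8%) were called higher with IWR-1, with Slc25a4, an adenine nucleotide carrier, at 0.62 (adjusted p = 0.00447). Of 26 outer membrane and import genes, 8 (30.8%) fell and 1 (3.85%) rose with knockdown. Phb, a prohibitin, fell (-0.38, adjusted p = 0.00774) and Tomm20, an import receptor, rose (0.57, adjusted p = 0.00384). The mitochondrial chaperone Hspd1 rose with IWR-1 (0.89, adjusted p = 7.613e-05), and Vdac1, the outer membrane channel, fell with XAV939 (-0.63, adjusted p = 0.00253) and IWR-1 (-0.53, adjusted p = 0.00223).

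Genes of the cytosolic ribosome, which have no part in the respiratory chain, shifted in the same directions. Of 76 tested, 73 had a log2 fold change below 0 with knockdown, with a median of -0.20 and 20 (26.3%) called lower. With XAV939 all 76 were above 0, with a median of 0.30 and 0 called by edgeR (7 at an unadjusted p under 0.05), and with IWR-1 75 were above 0, with a median of 0.25 and 2 called higher. In each comparison this median lay farther from 0 than that of the respiratory genes. Without the isoform genes of complex IV, 78 members were tested, of which edgeR called 14 with knockdown, 0 with XAV939 (12 at an unadjusted p under 0.05) and 4 with IWR-1.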

How the data were processed

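RNA sequencing covered 15 libraries of mouse articular chondrocytes, mapped to groups by their labels and column names. Per the methods, the authors used Trimmomatic for trimming, TopHat2 for alignment to mm10 and HTSeq for counting. The submitters' processing notes give versions 0.32, 2.0.13 and 0.6.1p1. The annotation and strand setting of the counting are not given in the sources used here, so genes that overlap (16 of 86 members) or share sequence (31 with over 10% of 50-base windows) are uncertain. The deposited values are raw counts per Entrez gene ID, and 24051 of 24134 IDs matched a symbol.

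The tests used edgeR 4.0.16 under R 4.3.3 (filterByExpr, TMM, quasi-likelihood F test, prior count 2). The siRNA table (13672 genes) and the drug table (13873 genes) were fitted separately, and differences of effects in 1 model over both (14271 genes). SEs are the log2 fold change over the square root of F. Isoform shares use counts per transcript length. Library totals were 26857070 to 36615194 counts. Reads carry no molecular identifiers, and the 95% intervals given are from the fits.

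Same-numbered libraries were paired by replicate number in the labels. After removal of group means their correlations were 0.143 to 0.553 in 9 drug pairs and 0.424 to 0.519 in 3 siRNA pairs, while differently numbered libraries reached 0.318 and 0.0972. The members and gene lists were chosen with earlier results of these data known. Named genes are the target genes, paralog sets, catalytic subunits and, per comparison, up to 5 members each way with the smallest adjusted p (3 for differences between effects, 2 in other lists). One member named by the rule is counted but not reported here. Members called in the fit with the block were named after their values were seen. The steps were tested on simulated data. Alternatives were RLE and upper-quartile scaling, DESeq2 1.42.0, other filters, the replicate block, removal of length and GC trends, the limits used by the study and leaving out libraries. Two-sided exact permutation tests of 3 against 3 cannot go below 0.1.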

Additional observations from a re-analysis of the deposited data

Results flagged for a closer look

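The results below were marked because the test of the difference itself, the interaction term in edgeR's quasi-likelihood fit over 15 libraries, passed the threshold between knockdown and an inhibitor.

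For knockdown against XAV939, 3 members differed. Cox6b2, the alternative version of a complex IV subunit, had a difference of -2.01 (knockdown minus XAV939, log2), since it fell with knockdown and rose with the drug. Ndufv1, the flavoprotein subunit that takes electrons from NADH, differed by -0.53, with knockdown libraries at 63.2 to 66.2 CPM against 72.7 to 74.3 CPM in siCtrl and XAV939 libraries at 62.9 to 75.7 CPM against 47.7 to 60.2 CPM in DMSO. Sdhc, a membrane anchor of succinate dehydrogenase, differed by -0.49.

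For knockdown against IWR-1, 13 members differed. Ndufa4l2 (1.78), Ndufv3 (0.95) and Cox7a1 (2.20) had the higher value with knockdown, since they fell with IWR-1. Sdhb (-0.70), Atp5b (-0.47) and Ndufv1 (-0.46) had the lower value with knockdown. Ndufa4l2 started from a mean of 98.0 CPM in siCtrl and of 646 CPM in DMSO, so the sets differed in the level from which the change was measured, and its part in the difference was not tested. Cox7a1 rested on 2 to 8 counts per library with IWR-1.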

How the results depend on the processing

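No member called without the block turned its direction under the alternatives in which it was followed. Members called only with the block were mostly not followed in this way. Percentages in brackets are shares of all genes called in the same fit. For knockdown (15 members called, 18%) the count was 9 without a filter on low counts (12%) and 6 with length and GC trends removed (20%). It was 37 with the replicate block (34.6%) and 0 at the limits of the study (fold over 3, adjusted p under 1e-05). When 1 library was left out, it was 1 to 15 (4.4% to 20.8%). When all libraries numbered 1, 2 or 3 were left out, it was 0, 27 and 0 (0%, 27.2% and 0.474%), an alternative chosen after seeing the data. For XAV939 (3 called, 17.4%) these were, in the same order, 5 (12.6%), 12 (27%), 30 (33.4%), 0, 1 to 7 (9.45% to 17.7%), and 0, 0 and 5 (3.23%, 8.04% and 15.5%). The count was 6 with DESeq2 (20.2%) and 22 with block and trend removal together (39.1%). For IWR-1 (9 called, 36.4%) it was 22 with the block (47.5%), 24 with trends removed (47.6%) and 31 with both (55.8%). It was 0 at the limits of the study, 8 to 12 with 1 library left out (26.9% to 40.3%) and 2 without the libraries numbered 1 (17.3%). The direct contrast (2 called, 17.6%) gave 8 with the block (30.7%) and 2 to 3 with 1 library left out (9.57% to 21.7%). It gave 1 without the libraries numbered 1 (3.73%) and 6 without those numbered 3 (16.5%). The interaction with XAV939 (3 called, 13.5%) gave 8 with upper-quartile scaling (13.4%), 32 with the block (28.2%) and 2 to 15 with 1 library left out (8.6% to 15%). That with IWR-1 (13 called, 24.4%) gave 29 with the block (36.3%) and 5 to 15 with 1 library left out (18.9% to 27.3%). The knockdown median of -0.14 was -0.068 with trends removed, with or without the block. With the shortest transcript length, an alternative also added later, the change in the Atp5g1 share was 3.73 percentage points with knockdown, 2.33 with XAV939, 11 with IWR-1 and 8.7 between inhibitors. The Atp5g2 share changed by -3.27 with IWR-1 and -2.03 between inhibitors, where the length used above gave 2.01 and 2.42. The Atp5g3 share changed by -7.8 with IWR-1 and by -0.8 with knockdown, where the length used above gave -4.63 and 0.892. The direction of both Atp5g2 changes and of the Atp5g3 change with knockdown therefore depended on the length used. The cause was not tested. At the limits of the study edgeR called 0% of all genes for the knockdown, 0.00721% for XAV939 and 1.05% for IWR-1, so the 0 there says little of the members. Depth limits Cox7a1, Cox6a2, Cox6b2 and Ndufs5, the tested members with the fewest counts, whose lowest libraries held 2, 39, 23 and 50 counts.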
